A study of Mus musculus with 5 samples.

Results

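The subject is the spots of sham-operated neonatal mouse hearts whose leading cell type score was CM4. A spot is a small barcoded area of a Visium slide that captures the RNA of the tissue above it and can hold several cells. Each spot carried 11 scores, made by the authors by label transfer from nuclei of an earlier experiment, that sum to 100% and estimate what the spot holds. A spot was a member when CM4 was the highest of the 11 scores and the spot had at least 1000 unique molecular identifiers (UMIs, counts of captured RNA molecules). In the sham sections 114 of 1504 spots qualified, against 3364 spots in the whole series. There were 56 among 544 spots at day 3 and 58 among 960 at day 7. One more spot of the day 3 section had CM4 as its highest score but only 882 UMIs, and was left out. The lowest UMI count of a member was 4081 at day 3 and 1791 at day 7.

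All hearts were from wildtype C57BL/6 mice operated on at postnatal day 1. Sham hearts had the chest opened without ligation of the left anterior descending coronary artery, as the neonatal operation is described in the methods. They were collected 3 or 7 days later, with 1 section each. The hearts with myocardial infarction (MI) had that artery ligated and gave 1 section at day 3 and 2 at day 7, with 202 CM4-dominant spots. All 5 sections came from one height of the heart, 200 µm below the level at which the artery is tied. The labels do not name the animals, but the supplementary legends give each unreplicated group as a single biological sample and the replicated MI group as independent ones. The p-values of the comparison of sham with MI rest on 5 sections, of which 3 are the only one of their group. Those within sham rest on 2 sections. The gene tests, made with limma, estimated the spread of a gene partly from the other genes. For sham against MI they had 3 residual degrees of freedom and a median of 13.1 prior ones from other genes. Within sham these were 3 and 8.48. Sham day 3 and day 7 spots had a median of 20843 and 22934 UMIs, and the 3 MI medians ran from 20904 to 53940. Sections shared 3 to 449 spot barcodes in pairs (339 between the sham sections), and a Visium barcode marks a place on the slide, not a cell. Expression was given as raw UMI counts for sham day 3 and as depth-corrected counts for the other 4 sections, so spots were compared within a section first.

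CM4 is the name the authors gave to a cardiomyocyte state of the neonatal heart marked by Acta2, the smooth muscle actin that embryonic cardiomyocytes also use. CM1 is the name of the main ventricular cardiomyocyte state. In the newborn heart Acta2 is also abundant in arterial smooth muscle, Eln encodes elastin of arteries and valves, and Fbln1 encodes fibulin-1, a matrix protein of fibroblasts and valves. Any spot over a vessel or a valve can therefore hold these transcripts without holding an immature cardiomyocyte.

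CM4 led by varying margins. The CM4 score of the members ran from 24.5% to 83.5% with a median of 60.05% at day 3, and from 25.1% to 87.8% with a median of 47.4% at day 7. It exceeded 50% in 37 of 56 and in 26 of 58 members. The lead over the second score was under 10 percentage points in 12 and in 24 members, and the smallest leads were 0.79 and 0.74 points. On the other side of the rule, CM4 trailed the leading score by less than 10 points in 12 and in 17 spots, the nearest by 1.33 and 0.78 points. The second score was CM1 in 41 members at day 3 (73.2%) and in 40 at day 7 (69.0%), and the fibroblast or macrophage score in most of the rest. In the MI sections CM1 was second in 42.5% to 55.8% of the CM4-dominant spots.

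Many of the members lay at the section edge. An edge spot was one with fewer than 6 direct neighbours on the grid of spots. Edge spots made up 57.1% of the members at day 3 (32 of 56; exact 95% confidence interval 43.2 to 70.3) and 43.1% at day 7 (25 of 58; 30.2 to 56.8). Among the other spots of the same sections the edge share was 11.1% (8.44 to 14.2) and 10.8% (8.81 to 12.96). Such intervals, here and below, cover counting error only, and neighbouring spots are not independent. In the MI sections the order was the opposite. There, 12.5% of CM4-dominant spots lay at the edge at day 3, and 1.32% and 15.1% in replicates 1 and 2 of day 7, against 21.5%, 16.0% and 20.9% of the other spots. The edge share of CM4-dominant spots exceeded that of the other spots by 46.1 and 32.3 percentage points in the sham sections. It was below it in every MI section, by -9.04, -14.7 and -5.74 points. Sham and MI differed by 49.0 points on average, with no overlap between the groups of sections. The exact permutation test over the 5 sections (10 splits, two-sided as 2 times the smaller tail) gave p = 0.2. That is the smallest value this test allows for 2 sections against 3.

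Seen from the tissue, 37.2% of the edge spots at day 3 (27.0 to 48.3) and 20.5% at day 7 (13.7 to 28.7) were members, against 5.25% (3.39 to 7.71) and 3.94% (2.73 to 5.49) of the interior spots. The largest drop was from the outermost ring to the next. At day 3 the share was 37.2% in the outermost ring of spots, 11.8% in the next, 10.1% in ring 3 and 2.56% in ring 4 and deeper. At day 7 the same rings held 20.5%, 5.22%, 7.77% and 3.06%. In the MI sections the deepest ring held 15.6%, 16.4% and 13.1% CM4-dominant spots and the outermost 6.76%, 1.03% and 7.05%. The members were not spread evenly along the edge either. On the lower side of the image, split at the median spot, 58.1% of edge spots were members at day 3 and 29.9% at day 7, against 16.3% and 9.09% on the upper side. The labels do not say how the sections were turned, so these sides have no anatomical name here.

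**Figure D1:**
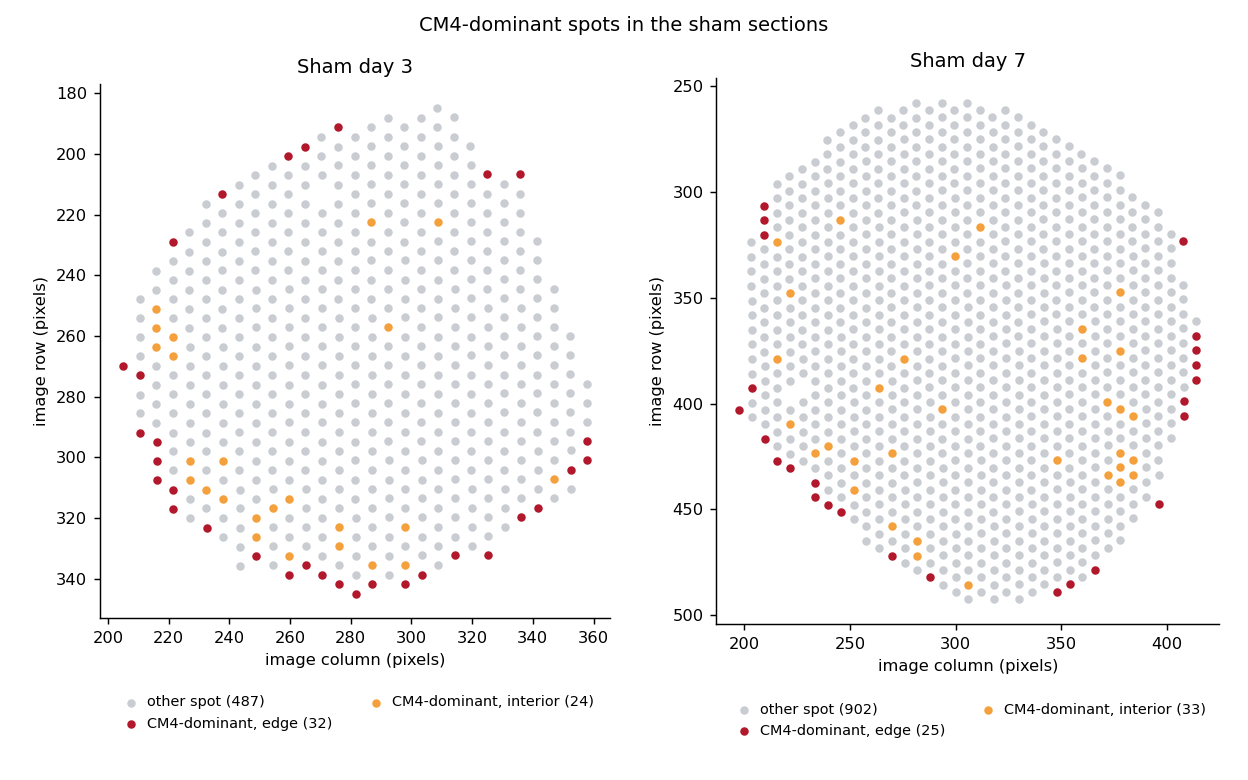
Position of every spot in the sham day 3 and day 7 sections, in image pixels, with edge members, interior members and other spots marked. Members lie at the edge in 57.1% and 43.1% of cases, against 11.1% and 10.8% of other spots, and more of them on the lower side, where 58.1% and 29.9% of the edge spots are members.

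**Figure D2:**
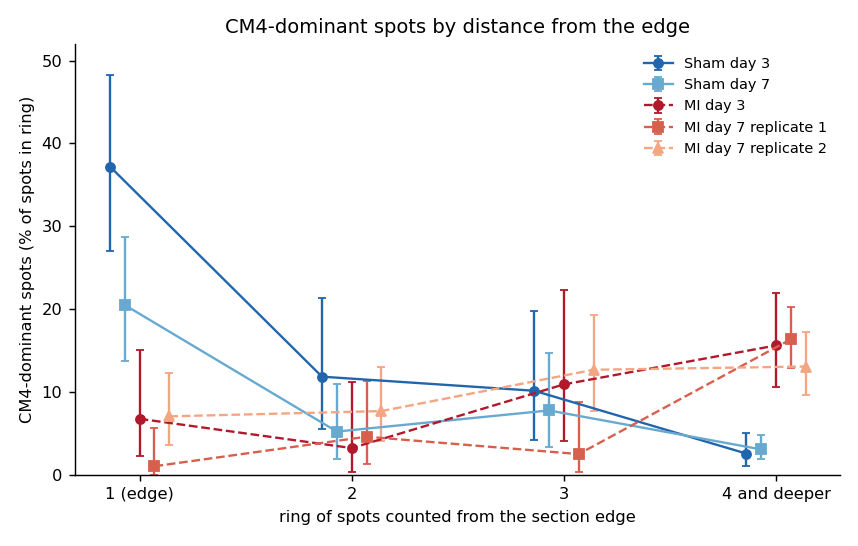
Share of spots that are CM4-dominant, in percent, by ring from the section outline (ring 1, the edge) to ring 4 and deeper, for each of the 5 sections; bars are exact 95% intervals for counting error. The sham shares fall from 37.2% and 20.5% in ring 1 to 2.56% and 3.06% in the deepest ring, and the MI shares are highest there (15.6%, 16.4% and 13.1%).

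Members formed small patches. The 56 members at day 3 fell into 23 connected groups, the largest of 10 spots, with 13 spots alone. At day 7 the 58 members fell into 37 groups, the largest of 6, with 27 alone. The largest group held 17.9% and 10.3% of the sham members, and 80.0%, 55.3% and 52.3% of the CM4-dominant spots of the MI sections. Of the neighbours of members, 33.6% at the edge and 23.6% in the interior at day 3 were members too. At day 7 these shares were 27.1% and 13.6%. For the other spots of the same section and position they were 21.5%, 5.48%, 8.98% and 4.08%. CM1-dominant spots made up 25% to 31.9% of the neighbours of members and 40.1% to 48.9% of the neighbours of other spots, and fibroblast-dominant spots 22.7% to 34.8% against 8.22% to 27.8%.

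Depth was similar in members and other spots, except at the day 3 edge. The median UMI count of edge members was 18088 at day 3, against 23071 in other edge spots, and 23247 against 21958 at day 7. Interior members had 20344 against 20840 and 24385 against 23001. Averaged over edge and interior, the log2 ratio of medians was -0.19 at day 3 and 0.08 at day 7, against 0.36, 0.08 and 0.45 in the MI sections. Sham and MI differed by -0.35 (exact permutation test, two-sided, p = 0.2, the smallest possible). The highest MI ratios lay above both sham ratios, but that of MI day 7 replicate 1 (0.08) was next to that of sham day 7.

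Whether the sham members carried the transcripts that mark the label depended on what they were compared with. Gene levels were taken as CPM, the value of a gene scaled so that every spot has the same total, over the 13711 genes shared by all 5 tables, and averaged over the spots of a section and position, and ratios are differences of log2(mean CPM + 1). Each ratio was taken in 4 comparisons (2 sham sections, edge and interior), so the SD given below is over 4 comparisons that come from 2 sections. The scores were computed from the same expression values, so a difference between members and other spots is a description of what the scores picked and has no p-value. In a spot, fewer cells of a type and less RNA per cell cannot be told apart.

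Acta2 (chromosome 19, 34241090 to 34255590, minus strand, GRCm38) averaged 352 CPM in edge members and 363 in interior members at day 3, and 346 and 342 at day 7. All other spots of the same section and position had 425, 428, 447 and 368, so that members were lower in 4 of 4 comparisons (mean log2 ratio -0.25 ± 0.11, SD). Eln (chromosome 5, 134702593 to 134747323, minus strand) averaged 172, 106, 169 and 175 CPM in the members, in the same order, against 281, 165, 557 and 286 in the other spots (-0.94 ± 0.52). Fbln1 (chromosome 15, 85205949 to 85286535, plus strand) had 52.2, 47.0, 64.5 and 48.8 CPM against 62.9, 50.6, 45.4 and 45.5, with ratios on both sides of 0 (0.06 ± 0.33). Against all other spots, the members were therefore not the spots richest in any of these transcripts.

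The means of the other spots rested on a small number of very rich spots. Acta2 reached 3516 and 3344 CPM among the other spots at day 3 and 2634 and 6820 at day 7 (edge and interior), whereas the richest member had 1082. Medians over spots gave another order: 334 CPM of Acta2 in edge members against 259 at day 3, 324 against 353 in the interior, 345 against 336 at the day 7 edge and 335 against 258 in the day 7 interior. For Eln the medians were 123 against 42.3, 104 against 61.6, 134 against 128 and 129 against 126, each higher in the members, although every mean was lower. In the raw counts of the day 3 section, Eln had 102 UMIs over the edge members, or 183 CPM (exact Poisson 95% interval 149 to 222), against 209 CPM (184 to 237) in the other edge spots, so the pooled edge values had overlapping intervals. In the interior it had 108 CPM (80.7 to 142) against 156 (148 to 164).

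Against CM1-dominant spots of the same section and position (34, 210, 49 and 334 spots), the same members were higher in these genes. The log2 ratio of Acta2 was 0.68, 0.13, 0.17 and 0.47 in the same order (mean 0.36 ± 0.26). The log2 ratio of Fbln1 was 1.34, 0.62, 0.76 and 0.94 (0.92 ± 0.31), and that of Eln was 1.47, 0.84, -0.02 and 0.66 (0.74 ± 0.61). CM4-dominant spots of the MI sections, compared in the same way with CM1-dominant spots, had Acta2 ratios from 0.35 to 1.13 over 5 comparisons. Within a section and position, the rank correlation of the CM4 score with Acta2 over all sham spots was 0.01, -0.13, -0.18 and 0.00 (86, 457, 122 and 838 spots of 1 library each). In the MI sections it was 0.35 and 0.46 at day 3, 0.51 and 0.45 in day 7 replicate 1 and 0.11 and 0.24 in replicate 2 (edge and interior, 75 to 627 spots). Tnnt2, cardiac troponin T and a defining cardiomyocyte gene, was abundant in every member. Its median was 4720 CPM in edge members and 4665 in interior members at day 3, against 5559 and 5394 in the other spots, and 5190 and 4707 at day 7, against 5649 and 5165.

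**Figure D3:**
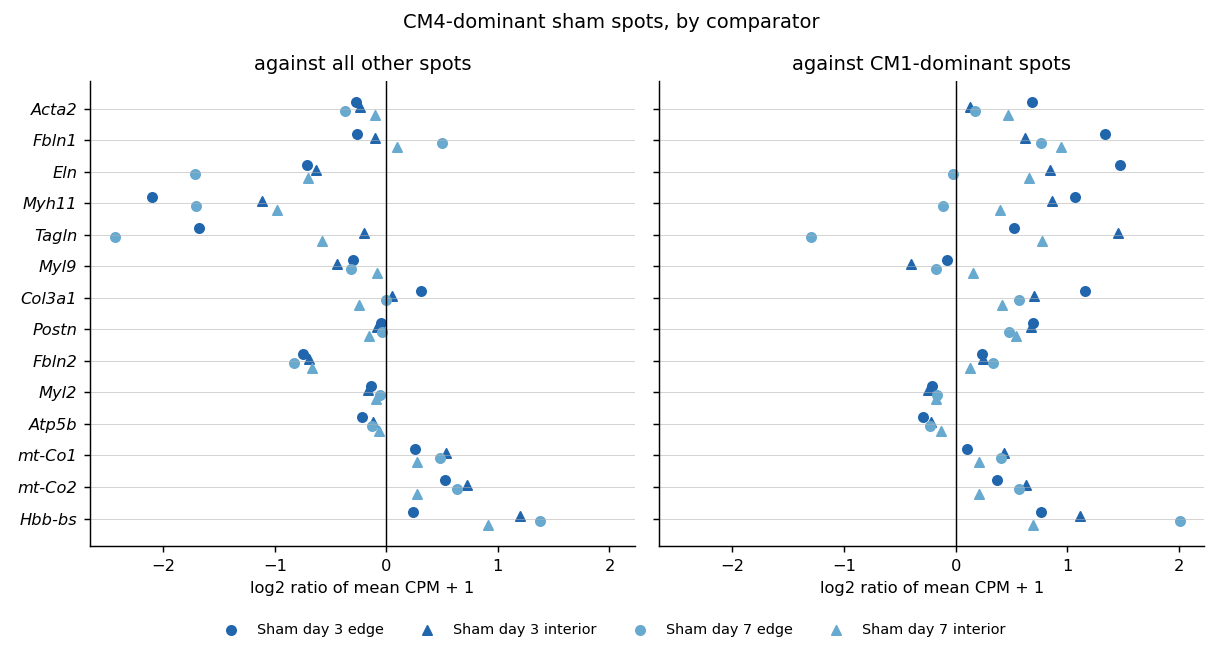
Log2 ratio of mean CPM of 14 genes in CM4-dominant sham spots against all other spots and against CM1-dominant spots of the same section and position; each point is 1 of 4 comparisons. Acta2 averages -0.25 against all other spots and 0.36 against CM1-dominant spots, and Eln -0.94 and 0.74, whereas mt-Co1, mt-Co2 and Hbb-bs lie above 0 against both.

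Transcripts of the mitochondrial genome, which encode the core of the respiratory chain, were higher in members in a way that did not depend on the comparator. They made up a median of 24.8% of the values of edge members at day 3, against 19.9% in other edge spots, and 20.7% against 13.6% in the interior. At day 7 the medians were 21.99% against 16.3% and 18.3% against 15.2%. The members overlapped with the other spots in each comparison: at the day 3 edge they ran from 17.4% to 30.0%, and the others from 5.74% to 29.9%. Of the 13 mitochondrially encoded genes, 12 were higher in all 4 comparisons with the other spots, against 2.22% of all 13198 genes tested (293), with a mean of the medians of 0.40 against -0.14 for all genes. Against CM1-dominant spots 11 of 13 were higher in all 4, as were 4.58% of all genes (mean of medians 0.29, against -0.06 for all genes). The mitochondrially encoded subunit mt-Co2 of cytochrome oxidase had 25541, 18482, 19652 and 13817 CPM in members and 17745, 11185, 12644 and 11418 in the other spots (0.54 ± 0.20). In the MI sections the order was reversed: the medians of CM4-dominant spots were 10.5% (edge) and 8.86% (interior) at day 3 and 20.8% (interior of replicate 1), 14.6% and 13.3% (edge and interior of replicate 2) at day 7, each below that of the other spots (17.3%, 13.7%, 24.6%, 17.1% and 14.5%).

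**Figure D4:**
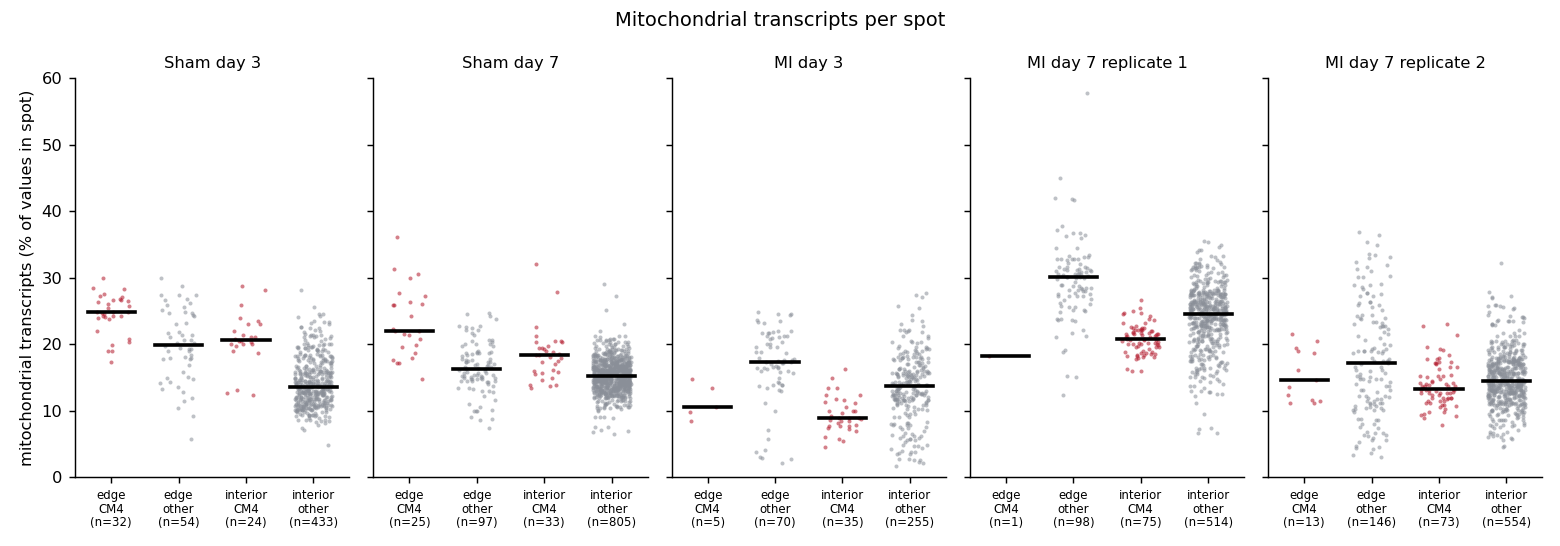
Percent of values in mitochondrially encoded genes per spot, for CM4-dominant and other spots at the edge and in the interior of the 5 sections. The medians of members exceed those of other spots in both sham sections (24.8% against 19.9% at the day 3 edge) and fall below them in the MI sections (8.86% against 13.7% in the day 3 interior).

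The nuclear genes of the respiratory chain did not follow. Of 22 nuclear-encoded subunits, 14 were lower in members in all 4 comparisons with other spots (mean of medians -0.13) and 17 against CM1-dominant spots (-0.21). Lower in all 4 were 15.8% of all genes tested (2084 of 13198), whose median was -0.14, and 11.3% against CM1-dominant spots. Atp5b, a subunit of the ATP synthase, had 3688, 4145, 4256 and 4653 CPM in members against 4294, 4514, 4650 and 4871. Of 14 fatty acid oxidation genes 7 were lower in all 4 (-0.09), among them Acadl, a dehydrogenase of long-chain fatty acids (-0.18 ± 0.07). Since CPM values share a fixed total, a larger mitochondrial share lowers the values of all other genes, and the median of -0.14 is the level to read these ratios against.

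Haemoglobin transcripts, which mark red blood cells, were the other group that was higher against both comparators. They made up a median of 0.68% of the values of edge members and 0.65% of interior members at day 3, against 0.29% and 0.22%, and 1.46% and 0.97% at day 7, against 0.56% and 0.39%. Hbb-bs, an adult beta globin, averaged 4738, 4803, 18092 and 6177 CPM in members and 4006, 2089, 6967 and 3277 in other spots (0.93 ± 0.50). The other globins gave means of 1.04 ± 0.56 (Hbb-bt), 1.03 ± 0.59 (Hba-a1) and 0.90 ± 0.54 (Hba-a2), and reads of the nearly identical Hba-a1 and Hba-a2 may not have been told apart. All 4 were higher in 4 of 4 comparisons, least at the day 3 edge, where the ratios were 0.14 to 0.29. The blood list as a whole had 4 of 6 genes higher in all 4 (0.97), beside 2.22% of all genes and a median of -0.14. In the MI sections the haemoglobin medians of CM4-dominant spots were above those of other spots in the day 7 interiors (0.89% against 0.60% in replicate 1 and 0.67% against 0.58% in replicate 2). They were below them at the edge of replicate 2 (0.64% against 0.77%) and at day 3 (0.20% against 1.04% at the edge and 0.39% against 0.64% in the interior). How far the blood and mitochondrial transcripts entered the scores was not tested.

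Many smooth muscle genes and some elastic fibre genes had lower means against all other spots. Of 12 smooth muscle genes 8 were lower in all 4 comparisons (mean of medians -0.53), of 18 elastic fibre genes 6 (-0.31) and of 8 endocardial genes 3 (-0.56), beside 15.8% of all genes and a median of -0.14. Myh11, the smooth muscle myosin heavy chain, averaged 3.77, 7.34, 8.80 and 11.6 CPM in members against 19.4, 17.1, 30.9 and 23.9 (-1.47 ± 0.52). In the day 3 edge members this rested on 3 UMIs in all. Tagln, transgelin of smooth muscle, averaged 21.4, 37.3, 13.9 and 28.4 CPM against 70.8, 42.9, 79.6 and 42.7 (-1.22 ± 1.03). Fbln5, a fibulin needed for elastic fibre assembly, gave -0.91 ± 0.48, Jag1, a Notch ligand, -1.08 ± 0.89, Gja4, the arterial gap junction protein connexin 37, -1.18 ± 1.06, and Vwf, von Willebrand factor of large vessel endothelium, -1.01 ± 0.75. Against CM1-dominant spots 2 of the 12 smooth muscle genes were lower in all 4, and none of the elastic fibre or endocardial genes was. The 2 were Smtn, smoothelin (-0.36 ± 0.06), and Pln, phospholamban (-0.18 ± 0.10). Pln is also in the cardiomyocyte list, and CM1-dominant spots had 3409 to 3656 CPM of it. Against CM1-dominant spots 8 of 18 elastic fibre genes, 2 of 12 smooth muscle genes and 0 of 8 endocardial genes were higher in all 4, beside 4.58% of all genes. In this comparison Myh11 averaged 0.55 and Tagln 0.36, each higher in 3 of 4, the smooth muscle list 0.07, the elastic fibre list 0.38 and the endocardial list 0.24. Myh11 had a median of 0 CPM over spots in members and in other spots of both sections and positions.

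Fibroblast genes were near the level of all other spots and above that of CM1-dominant spots. The list of 12 gave a mean of medians of -0.01, with 2 genes lower in all 4, against all other spots. Against CM1-dominant spots it gave 0.48, with 10 of 12 higher in all 4, beside 4.58% of all genes and a median of -0.06. Col3a1, a fibrillar collagen, had 2284, 1676, 2134 and 1631 CPM in members, 1844, 1622, 2132 and 1932 in all other spots, and a mean log2 ratio of 0.71 ± 0.32 against CM1-dominant spots. Cardiomyocyte genes were often lower in all 4 comparisons, by small amounts. Of 15, 11 were lower in all 4 against all other spots (-0.10, where 15.8% of all genes were and their median was -0.14) and 15 against CM1-dominant spots (-0.18, where 11.3% were and the median was -0.06), Myl2, the ventricular regulatory myosin light chain, by -0.11 ± 0.05 and -0.20 ± 0.03. The immature cardiomyocyte list of 10, which holds Nppa, Myh7, Tnni1 and Ankrd1, gave -0.10 against all other spots, with 2 genes lower in all 4 and none higher. Against CM1-dominant spots it gave -0.09, with 1 gene lower in all 4 and 1 higher. Against all other spots, Tnni1, the fetal troponin I (-0.15 ± 0.13), and Myh7, the fetal myosin heavy chain (-0.16 ± 0.11), lay within 1 SD of the median of all genes.

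The remaining marker lists are given first against all other spots, where the median of all genes was -0.14. Pericyte genes gave -0.01 (8 genes), endothelial -0.17 (10), macrophage -0.11 (11), epicardial -0.08 (8) and lymphatic -0.03 (7). The atrial list gave -0.36 (6), the valve list -0.25 (10), the conduction list -0.58 (5), skeletal muscle -0.73 (6) and Schwann and neuron genes -0.53 (3). Against CM1-dominant spots, where the median of all genes was -0.06 and 4.58% were higher in all 4, the macrophage list gave 0.39, with 3 of 11 genes higher in all 4. The lymphatic list gave 0.55, with 1 of 7, from medians of 1.51 and 1.03 at the edge and -0.14 and -0.18 in the interior, while the pericyte, endothelial and epicardial lists gave 0.05, -0.11 and 0.12. In this comparison the valve list gave 0.24, with 2 of 10 genes higher in all 4, and the atrial list -0.13. Conduction genes gave -0.28 (4 genes), skeletal muscle -0.44 (5) and Schwann and neuron genes 0.07 (2). The summed macrophage level was 199, 160, 218 and 123 CPM in members against 146, 187, 187 and 193, so it was higher at the edge and lower in the interior. The same order against all other spots held for the lymphatic list, whose sum was 200, 60.6, 149 and 57.4 CPM against 131, 82.3, 79.1 and 64.3. Only 1 of 8 adipocyte genes was tested and no gene of the T cell and thymus list. The part that blood, macrophage or lymphatic transcripts have in the edge position of the members was not tested.

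Groups tied to the study's interest in protein turnover and oxidative defence are given with the median of all genes (-0.14) beside them. Nfe2l1, the transcription factor the study calls Nrf1, averaged 66.8, 94.96, 73.3 and 100.05 CPM in members against 84.5, 103, 88.8 and 103 in the other spots (-0.19 ± 0.13) and -0.12 ± 0.12 as a log2 ratio against CM1-dominant spots. Of 31 proteasome genes 9 were lower in all 4 comparisons (-0.14), of 16 antioxidant genes 5 (-0.10), and of 10 genes of the CNC factor family and its partners 1 (-0.05, from medians of -0.26 and -0.40 at the edge and 0.30 and 0.16 in the interior). None of these 3 lists held a gene higher than in all other spots in all 4, and 15.8% of all genes were lower in all 4. The cell cycle list gave -0.04, with 2 of 17 lower in all 4 and none higher, and the actin cytoskeleton list -0.14, with 7 of 15 lower. Against CM1-dominant spots the proteasome list gave -0.10 (0 genes higher and 9 lower in all 4) and the antioxidant list -0.09 (1 and 4). There the CNC list of 11 gave 0.14 (1 and 0), cell cycle 0.09 (1 and 1) and actin cytoskeleton 0.04 (3 and 0). Of all genes 4.58% were higher and 11.3% lower in that comparison, with a median of -0.06.

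Across all genes few were far apart. At least 1.5-fold higher in all 4 comparisons were 5 of 13198 genes (0.0379%) and at least 1.5-fold lower were 105 (0.796%), whose median level was 2.68 CPM. The 5 higher genes, at means of 3.61 to 9.22 CPM, included Ccdc163, Cd68, Fbxo16 and Fxyd2. Cd68 marks macrophages. Of the 5947 genes that reached 20 CPM in the higher class, 0 were 1.5-fold higher (0%) and 5 were 1.5-fold lower (0.0841%): Eln, Fbln2, Mustn1, Myh11 and Osbpl3. Osbpl3, an oxysterol-binding protein, had 13.9, 17.0, 10.3 and 10.4 CPM in members against 29.4, 30.6, 25.6 and 25.1 (-1.07 ± 0.19), and stayed lower in all 4 against CM1-dominant spots (-1.15 ± 0.36). Fbln2, fibulin-2, had 114, 116, 120 and 118 CPM against 191, 189, 213 and 187, and was higher than in CM1-dominant spots (0.24 ± 0.09). Among genes that reached 20 CPM in the higher class, apart from globins and mitochondrial genes, the highest mean ratios with the same sign in all 4 were those of Zcchc7 (0.69 ± 0.35), Apln (0.68 ± 0.59), Flt4 (0.66 ± 0.33), Cacul1 (0.60 ± 0.18), Lrrc47 (0.58 ± 0.23) and Lrtm1 (0.55 ± 0.57). Apln encodes apelin, a peptide of endothelial cells, and had 39.4, 22.9, 53.5 and 54.99 CPM against 12.8, 18.0, 37.7 and 43.4. Flt4, a receptor for lymphatic growth factors, had 23.2, 22.8, 20.8 and 15.6 CPM against 14.8, 12.7, 9.92 and 13.3. With CM1-dominant spots as the comparator, 7 of 5816 genes that reached 20 CPM were at least 1.5-fold higher in all 4 and 1 was 1.5-fold lower.

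A test that the rule does not fix in advance is whether the difference between CM4-dominant and other spots was the same in sham and MI hearts. The scores came from the same expression values in every section. How far a gene differed here because the scores picked unlike spots in sham and MI was not tested. For each gene the difference in log2(mean CPM + 1) was taken within edge and interior spots and averaged, giving 1 value per section, and limma compared 2 sham with 3 MI sections (Benjamini-Hochberg adjusted p, two-sided). Edge spots of MI day 7 replicate 1 were left out, since only 1 was CM4-dominant. The edge value of MI day 3 rested on 5 CM4-dominant spots and had the same weight as its interior value, from 35. Of 13601 genes, 5 had a higher difference in sham (0.0368%) and 7 a lower one (0.0515%). The median over all genes was -0.20, so values relative to it are given beside each. The unadjusted p was under 0.05 for 104 genes on the higher side (0.765%) and 1357 on the lower (9.98%).

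The 7 lower genes were Nppa, Nppb, Acta2, Myl9, Tpm2, Mgp and Tgfb1i1. Nppa, atrial natriuretic peptide, averaged 181 and 489 CPM at the edge and in the interior of the day 3 sham members and 88.1 and 531 at day 7. The other sham spots had 319, 686, 111 and 334, so members were lower in 3 comparisons and higher in the day 7 interior. CM4-dominant spots of MI day 3 had 12220 and 24058 CPM, against 2511 and 7479 in its other spots. Those of MI day 7 replicate 1 had 336 against 152, and those of replicate 2 had 2610 and 4707 against 881 and 880. By section the difference was -0.65 and 0.17 for sham, and 1.98, 1.14 and 1.99 for MI, without overlap (-1.95, SE 0.23, limma adjusted p = 0.00288; -1.75 relative to the median gene). Nppb, brain natriuretic peptide, had section differences of -0.43 and 0.18 against 1.75, 0.81 and 1.21 (-1.38, SE 0.21, limma adjusted p = 0.0264).

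Acta2 itself was among them. By section its difference was -0.25 and -0.24 for sham, against 0.66, 0.45 and 0.27 for MI (-0.71, SE 0.12, limma adjusted p = 0.0446; -0.51 relative to the median gene). The call was lost with CM1-dominant spots as the others (-0.39, adjusted p = 0.336) and with median-of-ratios scaling (-0.47, adjusted p = 0.568). Myl9, a myosin light chain of smooth muscle and non-muscle cells, differed by -1.20 (SE 0.17, limma adjusted p = 0.0101), with 514 to 601 CPM in sham members against 258 to 1122 in MI. Tpm2, beta tropomyosin, differed by -1.26 (SE 0.21), Mgp, matrix Gla protein, by -1.05 (SE 0.17) and Tgfb1i1, a focal adhesion protein, by -0.92 (SE 0.16), with limma adjusted p of 0.0446, 0.0434 and 0.0465. Eln (-0.62, adjusted p = 0.349), Fbln1 (-0.12, adjusted p = 0.835) and Nfe2l1 (-0.23, adjusted p = 0.603) did not pass the limma threshold. The smooth muscle list had a median difference of -0.99 with 3 of 12 called, and the immature cardiomyocyte list -1.05 with 2 of 10, beside 0.0515% and a median of -0.20 for all genes. In each of these lists 8 genes were lower at an unadjusted p under 0.05, beside 9.98% of all genes. On the higher side the immature cardiomyocyte list had 1 such gene, Tnni1 (0.26, limma unadjusted p = 0.0191), beside 0.765% of all genes.

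The 5 genes on the higher side were Ddc, Hba-a2, mt-Nd4l, mt-Nd5 and mt-Nd2. Ddc, aromatic amino acid decarboxylase, had section differences of 0.45 and 0.16 in sham and -0.80, -0.73 and -1.20 in MI (1.21, SE 0.17, limma adjusted p = 0.0101; 1.41 relative to the median gene). Its sham levels were 89.8, 263, 77.9 and 62.7 CPM in members against 101, 126, 69.1 and 56.4, so the sham difference came mainly from the day 3 interior. With other spots matched on UMI count the Ddc difference was 0.66 (limma adjusted p = 0.571). Hba-a2 differed by 1.11 (SE 0.20), mt-Nd4l by 0.80 (SE 0.14), mt-Nd5 by 0.78 (SE 0.14) and mt-Nd2 by 0.76 (SE 0.14), with limma adjusted p from 0.0453 to 0.0465. The last 3 encode subunits of complex I. The mitochondrial list had a median difference of 0.70, with 3 of 13 called and 11 with an unadjusted p under 0.05 on the higher side, beside 0.0368% and 0.765% of all genes and their median of -0.20. The cell cycle, proteasome and antioxidant lists had 0 called genes, medians of -0.40, -0.16 and -0.14, and 5 of 17, 5 of 31 and 1 of 16 genes lower at an unadjusted p under 0.05, beside 9.98% of all genes.

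**Figure D5:**
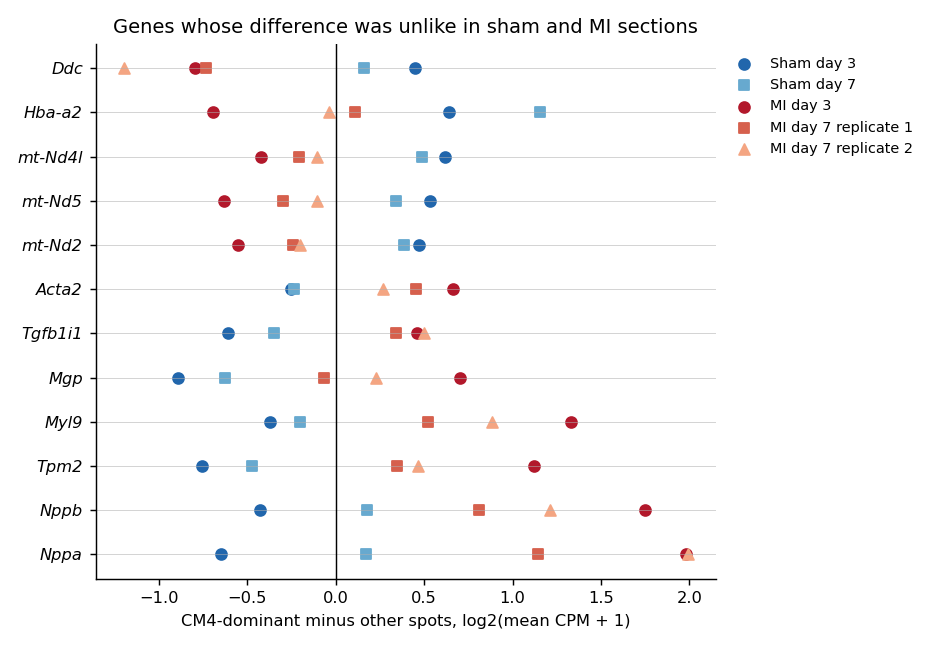
Difference in log2(mean CPM + 1) between CM4-dominant and other spots in each of the 2 sham and 3 MI sections, for the 12 genes past the threshold. Sham and MI sections do not overlap in any of the 12, which were chosen by this same difference. Nppa is farthest apart (-0.65 and 0.17 against 1.14 to 1.99).

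These 12 calls rested on few sections. Limma called 0 genes without the sham day 3 section, 1 without sham day 7, 44 without MI day 3, 42 without MI day 7 replicate 1 and 16 without replicate 2, and 0 in interior spots only. With median-of-ratios scaling, which brought the median of all genes to 0.01, 6 genes were higher and 1 (Nppa) lower, against 5 and 7, and 6 of those 7 were among the 12. In interior spots only, the 12 differences kept their sign, from 1.45 for Ddc to -1.66 for Nppa, with limma adjusted p from 0.0827 to 0.172.

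Edge and interior members were compared in a fit of 8 sham profiles with the section as a term. Relative to interior members, edge members had a higher level of 1 gene of 13198 (0.00758%) and a lower level of 2 (0.0152%), and the median over all genes was -0.10. Col1a1, the main fibrillar collagen, had 1000.4 CPM at the edge and 632 in the interior at day 3, and 800 and 468 at day 7 (0.72, SE 0.10, limma adjusted p = 0.0451). Of the lower genes, Nppa, at the levels given above, differed by -2.004 (SE 0.27, limma adjusted p = 0.0451). The other sham spots had the same order in Col1a1, with 837 and 648 CPM at day 3 and 804 and 619 at day 7, and in Nppa, with 319 and 686 CPM and 111 and 334. The unadjusted p was under 0.05 for 569 genes on the higher side (4.31%) and 1349 on the lower (10.2%). Of the 13 mitochondrial genes 9 were among the 569 (median 0.31), and of the 22 nuclear respiratory chain genes 14 were among the 1349 (-0.16). The spread in this fit was shared by profiles of 24 to 33 members and of 54 to 805 other spots, and profiles of few spots vary more, so the p-values for members may be too small and the 3 calls may include unchanged genes.

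A difference between members and other spots in the edge-to-interior change was not detectable for any gene. Limma called 0 of 13198 genes (0%), with 299 and 342 at an unadjusted p under 0.05 in either direction and a lowest adjusted p of 0.939. The smallest p-values were those of Tagln (-1.67, SE 0.34), Olfr78 (-3.51, SE 0.76), Bicd2 (-1.04, SE 0.24), Ptn (0.77, SE 0.18), Gmfg (3.41, SE 0.83) and Sppl2a (1.301, SE 0.32). Tagln was 21.4 CPM in edge members and 70.8 in other edge spots at day 3, and 13.9 and 79.6 at day 7, whereas interior levels were closer (37.3 and 42.9, 28.4 and 42.7). Acta2 changed from interior to edge by -0.01 (SE 0.09) in members.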

How the data were processed

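Visium libraries of 5 heart sections were analysed, with sections as replicates and groups from the labels. As the labels and methods state, the authors aligned reads to GRCm38/mm10 with Space Ranger and processed the spots in Seurat with sctransform. The deposited sham day 3 table held raw UMI counts per gene and spot (its totals equalled the raw totals in 100% of spots). For the other 4 sections the deposited values were a score, sctransform-corrected counts rounded to whole numbers by the tool. The deposited metadata gave raw UMI counts, image positions (other units) and 11 prediction scores, each a fraction made by the authors with TransferData. No count test was used, since only 1 table held counts.

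Each spot was scaled to CPM over the 13711 genes shared by all tables, which held at least 99.8% of the values. Mean CPM was taken per section, class and position (at least 5 members), as log2(mean CPM + 1), with genes kept at 1 CPM or more in at least 2 profiles. Limma 3.58.1 (R 4.3.3, trend) gave two-sided p-values, adjusted by Benjamini-Hochberg, threshold 0.05. Other values used Python 3.11.15, numpy 2.4.6, pandas 2.3.3 and scipy 1.17.1. Shares have Clopper-Pearson and raw UMI sums Poisson intervals at 95%, for counting error only. Fits were tested on simulated data with 200 genes changed. Coordinates are from GENCODE for GRCm38, the build of the files.

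Named genes were the 12 highest and 12 lowest mean ratios with 1 sign in all 4 comparisons and at least 20 CPM in the higher class, the label markers and Nfe2l1, up to 4 most abundant members of each of 30 lists, and up to 5 called genes per test and direction, or the 3 of smallest p in each direction where none was called. The members, the lists and these rules were chosen with earlier results of these data known. The text names only some of the genes the rule gives. Some genes within the counts are not reported here. Genes named outside it are those of counts of 7 or fewer, Tgfb1i1 among them, and were chosen after their values were seen. Alternatives were another pseudocount, filter, scaling, UMI minimum, edge definition, score minimum, comparator and depth matching, leaving out each section, and, chosen after seeing the data, interior spots only and a 20 CPM minimum. There were 0 other columns of values for samples outside the series.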

Additional observations from a re-analysis of the deposited data

Results flagged for a closer look

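The edge share of CM4-dominant spots minus that of other spots was 49.0 percentage points higher in sham than in MI sections, positive in 2 of 2 sham and negative in 3 of 3 MI sections. The exact permutation test could not go below p = 0.2, so the difference is a description.

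The difference between CM4-dominant and other spots was not the same in sham and MI sections for 10 genes named from that test (limma, 5 sections, differences on the log2(mean CPM + 1) scale). It was higher in sham for Ddc (1.21), Hba-a2 (1.11), mt-Nd4l (0.80), mt-Nd5 (0.78) and mt-Nd2 (0.76). It was lower in sham for Nppa (-1.95), Nppb (-1.38), Tpm2 (-1.26), Myl9 (-1.20) and Mgp (-1.05). In each of the 10 the sham sections lay on one side of all MI sections, but the genes were chosen by this same difference. Nppa passed the limma threshold in 16 of 18 settings, Ddc and Myl9 in 14 of 18, Nppb in 12, Tpm2 in 11 and Mgp in 10. Of 17 settings that keep them, Hba-a2 and mt-Nd5 passed in 13, mt-Nd4l in 12 and mt-Nd2 in 11.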

How the results depend on the processing

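The 12 genes that differed between sham and MI became 20 with a pseudocount of 5 CPM, 4 with no filter, 7 with median-of-ratios scaling, 26 with day as a covariate, 58 with a CM4 score of at least 0.4, 3 without mitochondrial and haemoglobin genes, 31 with edge as fewer than 5 neighbours, 19 with other spots matched on UMI count and 0 in interior spots only. Leaving out a section gave 0 (without sham day 3) to 44 (without MI day 3), with 1 without sham day 7 and 42 without MI day 7 replicate 1. The 3 genes that differed between edge and interior members became 11 with a pseudocount of 5 CPM, 0 with no filter, 7 with median-of-ratios scaling, 1 with summed values, 5 with CM1-dominant spots as the others, 7 with the other edge definition and 5 with matched depth. The 110 genes at least 1.5-fold apart in all 4 sham comparisons became 7 with a pseudocount of 5 CPM and 5 with a 20 CPM minimum, and 1207 in the day 3 section alone and 927 in the day 7 section alone, where only 2 comparisons had to concur. The causes were not tested, except that leaving out a section removes comparisons or samples. The other 42 recomputed main values, among them 0 calls for the difference in edge change, stayed on their side. The edge share difference was 42.4 to 54.0 points over its settings and 42.2 to 55.9 without a section. Among the values for named genes and lists, 820 stayed, 165 moved, 74 lost and 2 gained significance, and none that had been called changed sign.

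No paired analysis was possible because only the MI day 7 group has 2 replicates and the groups compared share only replicate number 1. The tests within sham could not be run without a section, which leaves no residual degrees of freedom. Low UMI sums limit genes under 20 CPM, as in Myh11, and the depth of the 4 corrected tables is known only per spot.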
